A study of Mus musculus with 27 samples.

Results

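The genes described here are the NF-kB transcription factor subunits and the inhibitors that switch the pathway off. They were taken by name as 5 subunit genes (Nfkb1, Nfkb2, Rel, Rela and Relb) and 5 inhibitor genes (Nfkbia, Nfkbib, Nfkbie, Nfkbiz and Tnfaip3), 10 of the 55291 gene rows of the deposited tables. Polyadenylated RNA was sequenced from mouse endothelial cells (EC) and mouse peritoneal macrophages (PMAC), in 18 libraries that formed 6 groups of 3. The groups were EC labelled chylomicron-treated, EC labelled SRBI knockdown, EC control, PMAC labelled chylomicron-treated, PMAC labelled SRBI knockdown and PMAC control. Chylomicrons are gut-derived particles that transport dietary fat, and the receptor SR-BI, which binds lipoproteins, is the product of Scarb1. The series title concerns inflammation of macrophages driven by vesicles that endothelial cells shed after chylomicron exposure.

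The labels gave no dose, time, strain, age or sex, and no genotype beyond the knockdown. They did not say whether the knockdown libraries also received chylomicrons, in which cells the knockdown behind the PMAC libraries was made, or whether PMAC labelled chylomicron-treated met chylomicrons or material from treated endothelial cells. The RNA extraction text names murine cell lines called PL and PLA without tying a library to either. Nothing in the labels says that replicates were separate cultures or animals, so each p-value measures the spread between these libraries, which may be technical.

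NF-kB works as pairs of subunits that are held in the cytoplasm of resting cells by IkB proteins. Signals from cytokine and Toll-like receptors activate the IkB kinase complex, which marks IkB proteins for destruction and frees the subunits to enter the nucleus. Several of the genes then switched on encode subunits and inhibitors of the pathway itself, so their transcripts are often used as a readout of NF-kB activity in endothelial cells and macrophages.

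Recovered reads per library numbered 41903092 to 45457472 in EC chylomicron, 16758727 to 20715157 in EC SRBI knockdown, 40046820 to 46700757 in EC control, 30547284 to 38394674 in PMAC chylomicron, 38332909 to 55874954 in PMAC SRBI knockdown and 42775013 to 45991856 in PMAC control. Each of the 10 genes had at least 154 reads in every library, and all 10 passed the filter on low values. EC chylomicron replicate 2 stood apart on the first principal component (74.5, against -30.9 to 4.91 in the other 5 EC libraries of that table). EC control replicate 1 differed from replicates 2 and 3 by a chi-square per gene of 143 and 146, against 18.8 between replicates 2 and 3. The pairs of EC chylomicron libraries gave 109, 102 and 81.8. Scarb1 reached 114 to 120.4 RPM (reads scaled to a library total of 1000000) in EC SRBI knockdown beside 251 to 302 RPM in EC control. Scarb1 in EC chylomicron, at 207, 274 and 224 RPM, overlapped EC control. In PMAC it reached 43.2 to 51.2 RPM in SRBI knockdown, 37.1 to 42.4 RPM in chylomicron and 58.0 to 60.6 RPM in control, so its lowest PMAC levels in RPM were those of the chylomicron libraries. In normalized counts the SRBI knockdown libraries (1770 to 2149) and the chylomicron libraries (1571 to 1832) overlapped. Summed over 12 endothelial markers, EC chylomicron held 785 to 982 RPM, EC SRBI knockdown 245 to 266 RPM, EC control 978 to 1071 RPM and all PMAC libraries 4.74 to 11.1 RPM. The 7 fibroblast and mural markers summed higher in the EC libraries. They held 3140 to 3267 RPM in EC chylomicron, 4237 to 4637 in EC SRBI knockdown and 2733 to 3231 in EC control. Of the 12 endothelial markers, 11 averaged over 1 RPM in EC control and 7 in EC SRBI knockdown, where Flt1 alone averaged 111 RPM. The name EC follows the labels, and which cells gave the RNA was not tested. Summed over 12 macrophage markers, PMAC chylomicron held 28863 to 31056 RPM, PMAC SRBI knockdown 32920.1 to 36568 RPM, PMAC control 47969 to 50521 RPM and all EC libraries 183 to 305 RPM. The macrophage markers Adgre1, Fcgr1 and Timd4 were at 0 in every EC chylomicron and EC SRBI knockdown library. Of the 12, however, 6 averaged over 1 RPM in EC chylomicron and 5 in EC SRBI knockdown. Most of the EC sums came from Gata6, with means of 148 RPM in EC chylomicron, 142 in EC SRBI knockdown and 166 in EC control.

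RefSeq promoter windows of GRCm38.p6, which run from 250 bases before to 50 bases after an annotated start, were available for 7 of the 10 genes in 10 windows. Nfkb1, Relb and Nfkbiz were not matched. The windows of 6 genes are printed because they show how the genes of this feedback circuit do and do not carry the sequence that NF-kB binds. Each is written 5′ to 3′ on the gene's own strand, with letters matching the 10-base kappaB consensus on either strand in capitals. Overlapping matches were merged.
Nfkbia: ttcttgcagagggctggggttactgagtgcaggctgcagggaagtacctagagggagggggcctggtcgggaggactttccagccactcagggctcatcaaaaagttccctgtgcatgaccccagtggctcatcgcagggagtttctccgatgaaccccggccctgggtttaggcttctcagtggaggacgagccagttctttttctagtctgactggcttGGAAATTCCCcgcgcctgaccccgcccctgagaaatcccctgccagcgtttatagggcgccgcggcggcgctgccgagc
Tnfaip3: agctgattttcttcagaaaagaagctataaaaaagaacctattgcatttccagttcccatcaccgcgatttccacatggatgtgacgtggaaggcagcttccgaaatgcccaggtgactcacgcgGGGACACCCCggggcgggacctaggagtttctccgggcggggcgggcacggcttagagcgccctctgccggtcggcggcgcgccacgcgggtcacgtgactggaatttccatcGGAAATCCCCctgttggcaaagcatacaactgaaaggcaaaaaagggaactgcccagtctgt
Nfkb2: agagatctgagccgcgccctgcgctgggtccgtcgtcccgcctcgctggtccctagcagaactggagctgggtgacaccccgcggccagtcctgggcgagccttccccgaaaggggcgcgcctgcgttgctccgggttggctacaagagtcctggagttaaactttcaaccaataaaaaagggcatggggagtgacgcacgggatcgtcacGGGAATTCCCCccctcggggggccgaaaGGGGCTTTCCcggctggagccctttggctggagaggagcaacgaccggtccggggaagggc
Rel: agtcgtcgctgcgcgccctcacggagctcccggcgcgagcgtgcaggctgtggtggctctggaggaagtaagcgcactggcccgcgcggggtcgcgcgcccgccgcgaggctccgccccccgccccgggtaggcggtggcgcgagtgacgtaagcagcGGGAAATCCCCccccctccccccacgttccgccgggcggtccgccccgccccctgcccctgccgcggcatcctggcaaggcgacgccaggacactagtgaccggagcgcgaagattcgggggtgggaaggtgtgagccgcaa
Nfkbie: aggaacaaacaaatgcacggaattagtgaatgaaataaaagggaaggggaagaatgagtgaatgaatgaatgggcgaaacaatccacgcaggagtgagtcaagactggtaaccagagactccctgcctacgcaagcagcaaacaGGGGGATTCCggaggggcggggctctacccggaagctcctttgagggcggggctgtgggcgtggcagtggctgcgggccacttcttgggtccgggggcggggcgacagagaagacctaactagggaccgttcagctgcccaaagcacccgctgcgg
Rela: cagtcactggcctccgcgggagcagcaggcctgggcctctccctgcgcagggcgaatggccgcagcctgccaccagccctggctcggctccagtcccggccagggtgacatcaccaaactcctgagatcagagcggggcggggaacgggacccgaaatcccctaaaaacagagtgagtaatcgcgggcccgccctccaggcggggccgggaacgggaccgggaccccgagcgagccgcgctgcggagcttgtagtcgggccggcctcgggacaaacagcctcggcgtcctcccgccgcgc
The windows lie at chr12:55492598-55492897 on the minus strand for Nfkbia, chr10:19015361-19015660 on the minus strand for Tnfaip3, chr19:46304487-46304786 on the plus strand for Nfkb2, chr11:23770920-23771219 on the minus strand for Rel, chr17:45555450-45555749 on the plus strand for Nfkbie and chr19:5637291-5637590 on the plus strand for Rela. A match was found for 5 of the 7 genes, namely Nfkb2, Rel, Nfkbia, Nfkbie and Tnfaip3, and in 7 of the 10 windows, of which a pair of Nfkb2 windows overlap and share a matched site. No match was found in the windows of Rela and Nfkbib. Among all 32851 RefSeq mouse promoter windows of this length, 7.857% held at least 1 match and 0.88% held 2 or more. A match is a run of letters and was not tested for binding.

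**Figure D1:**
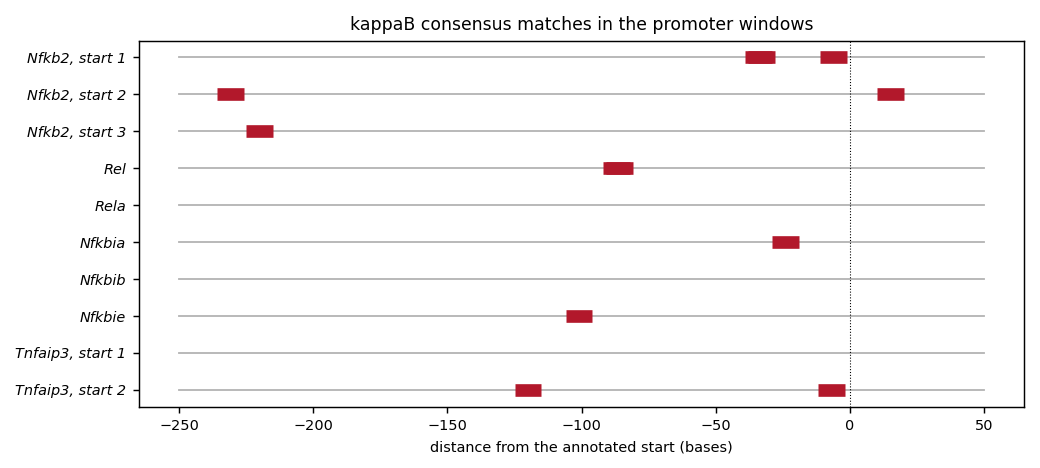
Matches to the kappaB consensus (red boxes) in the 10 promoter windows of 7 of the genes, plotted by distance in bases from each annotated start (dotted line). Windows were available for 3 annotated starts of Nfkb2 and 2 of Tnfaip3. The windows of Rela, Nfkbib and the first of these Tnfaip3 starts hold no match.

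In endothelial cells, 7 of the 10 genes rose with chylomicrons. The inhibitors Nfkbia and Tnfaip3 had the highest log2 fold changes of the 10, followed by the subunit Relb and the inhibitor Nfkbie. Rela, Rel and Nfkbib did not pass the test. By comparison, 5.16% of the 15595 genes tested passed in the higher direction and 3.28% in the lower. The lower direction held 0 of the 10 genes with limma, edgeR and DESeq2 alike, and 0 at an unadjusted p under 0.05. The groups did not overlap, with chylomicron higher, for 8 of the 10 genes and for 13.1% of all genes, and with chylomicron lower for 11.6% of all genes. Values are normalized counts per library, each a whole number of reads divided by 1 factor for that library, and every adjusted p for genes is from limma with Benjamini-Hochberg adjustment over all genes tested. The median log2 fold change of the 10 genes was 0.75, and that of all genes was -0.02.

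Among the subunits, Relb, whose product pairs with p52 in the non-canonical branch, had 2127, 2269 and 1939.6 normalized counts in the EC chylomicron libraries, against 903, 1048 and 1134 in EC control. All 3 chylomicron libraries lay above all 3 controls, and the log2 fold change was 1.04 (95% interval 0.82 to 1.26, adjusted p = 3.76e-05). Nfkb2, which encodes p100, the precursor of p52, had 5518, 5748 and 4683 normalized counts in EC chylomicron, against 3008, 2986 and 3042 in EC control. The control libraries lay within a narrow band far below the lowest chylomicron library, with a log2 fold change of 0.81 (adjusted p = 8.59e-05). Nfkb1, which encodes p105, the precursor of p50, had 7702, 8149.8 and 6691 normalized counts in EC chylomicron, against 5867, 6089 and 5742 in EC control. The groups did not overlap and the log2 fold change was 0.34 (95% interval 0.15 to 0.53, adjusted p = 0.0277). This call did not hold without EC chylomicron replicate 1 (adjusted p = 0.0770) or 2 (0.0542), without EC control replicate 1 (0.125), 2 (0.0859) or 3 (0.132), or without the mean-variance trend (0.135), within a range of 8.91e-04 to 0.171 over 16 alternatives.

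Rel, which encodes the lymphoid and myeloid subunit c-Rel, had 711, 610.1 and 626 normalized counts in EC chylomicron, against 455, 549 and 507 in EC control. The groups did not overlap, yet the log2 fold change of 0.37 (95% interval 0.12 to 0.61) missed the threshold (adjusted p = 0.0663), and it passed without EC chylomicron replicate 2 (adjusted p = 0.0472), in a range of 0.0472 to 0.273. Rela, which encodes the main activating subunit p65, had 3497, 3998 and 2838 normalized counts in EC chylomicron, against 3263, 3225 and 3235 in EC control. The chylomicron libraries fell on both sides of the controls, and the log2 fold change was 0.07 (95% interval -0.16 to 0.31, adjusted p = 0.790). The interval leaves room for a change of either sign.

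Among the inhibitors, Nfkbia, which encodes IkB-alpha, an IkB protein that NF-kB itself induces, had 6279, 6209 and 6795 normalized counts in EC chylomicron, against 2064, 1832 and 2098 in EC control. The lowest chylomicron library was far above the highest control, and the log2 fold change was 1.69 (95% interval 1.51 to 1.86, adjusted p = 4.61e-08). A larger absolute fold change was found in 0.943% of all genes tested in EC. Its promoter window, printed above, carries a match just upstream of the start. Tnfaip3, which encodes the ubiquitin-editing enzyme A20 that dampens receptor signalling, had 2608, 2609 and 2297 normalized counts in EC chylomicron, against 926, 929 and 1043 in EC control. The groups were well apart, with a log2 fold change of 1.37 (95% interval 1.18 to 1.57, adjusted p = 8.95e-07).

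Nfkbie, which encodes the inhibitor IkB-epsilon, had 737, 916 and 767 normalized counts in EC chylomicron, against 389, 398 and 392 in EC control. Every chylomicron library exceeded every control, and the log2 fold change was 1.03 (adjusted p = 8.10e-05). Nfkbiz, which encodes IkB-zeta, a nuclear member of the family that can activate as well as restrain target genes, had 6547, 6411 and 5842 normalized counts in EC chylomicron, against 4202, 3924 and 3607 in EC control. The groups did not overlap, and the log2 fold change was 0.68 (adjusted p = 2.66e-04). Nfkbib, which encodes IkB-beta, had 541, 527 and 439 normalized counts in EC chylomicron, against 422, 434 and 464 in EC control. Its groups overlapped, and its log2 fold change was 0.19 (95% interval -0.07 to 0.44, adjusted p = 0.440).

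Markers of the labelled cell moved in the same EC libraries. Of 11 endothelial markers tested, 4 were lower in EC chylomicron than in EC control and the other 7 did not pass. The fibroblast and mural list summed to 3140.1 to 3267 RPM in EC chylomicron, against 2733 to 3231 RPM in EC control, and the 1 of its 7 genes that passed, Acta2, was lower (log2 fold change -0.33, adjusted p = 0.0259). The part of such differences in the results for the 10 genes was not tested. In bulk RNA, fewer cells of a type and less RNA per cell cannot be told apart.

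In macrophages, 8 of the 10 genes were higher in the chylomicron libraries than in control. Nfkbiz and Tnfaip3 had the highest log2 fold changes, followed by Nfkbib, Nfkb2 and Rel, and Relb and Nfkbie did not pass the test. In this contrast 16% of the 13630 genes tested passed in the higher direction and 17.4% in the lower. The lower direction held 0 of the 10 genes with limma, edgeR and DESeq2, and 0 at an unadjusted p under 0.05. The chylomicron libraries lay above the controls without overlap for 8 of the 10 genes and 20.6% of all genes, and below them for 21.9% of all genes. The median log2 fold change was 0.59 for the 10 genes and -0.01 for all genes. The 3 PMAC contrasts share libraries, so their values are given side by side below and not as independent results.

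Nfkb1 had 14048, 14075 and 13489 normalized counts in PMAC chylomicron, against 10122, 9489 and 9652 in PMAC control. The groups were clearly apart, with a log2 fold change of 0.51 (adjusted p = 5.74e-08). Nfkb2 had 13375, 14629 and 13619.7 normalized counts in PMAC chylomicron, against 9389, 8357 and 8459.6 in PMAC control. Its groups did not overlap and its log2 fold change was 0.67 (adjusted p = 2.05e-08). Rel had 3200.3, 2821 and 3159.8 normalized counts in PMAC chylomicron, against 1846, 2059.8 and 1958 in PMAC control. All chylomicron libraries were above all controls, with a log2 fold change of 0.65 (95% interval 0.51 to 0.78, adjusted p = 3.71e-07).

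Rela had 3941, 4102 and 3817 normalized counts in PMAC chylomicron, against 3655, 3663 and 3377 in PMAC control. The groups did not overlap but lay close together, and the log2 fold change of 0.15 (95% interval 0.03 to 0.27) passed narrowly (adjusted p = 0.0451). The call was lost in 11 of 17 alternatives (adjusted p 0.0339 to 0.646 over all of them). Single libraries that ended it were PMAC chylomicron replicate 1 (0.0747 without it) and 2 (0.126), and PMAC control replicate 1 (0.0589), 2 (0.0580) and 3 (0.196). With columns rescaled to equal totals the log2 fold change of Rela was 0.03, and with the replicate number as a block its adjusted p was 0.0639. Relb had 3483, 4055 and 3373 normalized counts in PMAC chylomicron, against 3398, 3441 and 3517 in PMAC control. The groups overlapped, and the log2 fold change of 0.07 (95% interval -0.07 to 0.21, adjusted p = 0.460) became -0.045 with columns rescaled to equal totals.

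Nfkbia had 21729, 22669 and 21160.0 normalized counts in PMAC chylomicron, against 15626, 14866 and 14842 in PMAC control. The groups were far apart, with a log2 fold change of 0.53 (95% interval 0.44 to 0.63, adjusted p = 4.50e-08), and 23.8% of all genes tested in PMAC had a larger absolute change. Tnfaip3 had 13538, 13016 and 12859 normalized counts in PMAC chylomicron, against 7419.8, 7027 and 7449 in PMAC control. No library of the groups came near the other group, and the log2 fold change was 0.85 (adjusted p = 3.34e-10). Nfkbiz had 5358, 5605 and 5674 normalized counts in PMAC chylomicron, against 2706, 2295 and 2698 in PMAC control. Its log2 fold change of 1.12 (95% interval 0.99 to 1.24, adjusted p = 1.47e-10) was the highest of the 10 genes in macrophages, and 8.73% of all genes had a larger absolute change.

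Nfkbib had 3414, 3340.3 and 3392 normalized counts in PMAC chylomicron, against 2111, 1864 and 2109 in PMAC control. The chylomicron libraries were tightly grouped above the controls, with a log2 fold change of 0.74 (95% interval 0.62 to 0.87, adjusted p = 2.50e-08). Nfkbie had 5221, 5122 and 4940.3 normalized counts in PMAC chylomicron, against 5479, 4934 and 5019.9 in PMAC control. The groups overlapped, with a log2 fold change of -0.01 (95% interval -0.12 to 0.10, adjusted p = 0.880) that was -0.13 with columns rescaled to equal totals (adjusted p = 0.0526). Nfkbie and Relb, which rose in EC, thus did not pass in PMAC, and Nfkbib, Rel and Rela passed in PMAC but not in EC. For Nfkbie the 95% interval of the log2 fold change was 0.79 to 1.27 in EC, wholly above that in PMAC, and for Nfkbib the PMAC interval lay wholly above that in EC. The intervals overlapped for Rel (0.12 to 0.61 in EC, 0.51 to 0.78 in PMAC) and Rela (-0.16 to 0.31 in EC, 0.03 to 0.27 in PMAC). The difference between the cell types was not itself tested, as tests were kept within a table.

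Of the 12 macrophage markers, 3 were higher and 6 lower in PMAC chylomicron than in PMAC control, and 2 were higher and 7 lower in PMAC SRBI knockdown than in PMAC control. Over the 8 neutrophil markers PMAC SRBI knockdown summed to 801 to 939.6 RPM, PMAC chylomicron to 349.9 to 377 RPM and PMAC control to 391 to 446 RPM. The higher sum under the knockdown label was that of 1 gene, Mmp8, with mean levels of 785 RPM in PMAC SRBI knockdown, 291 in PMAC chylomicron and 356 in PMAC control, while S100a8 averaged 70.4, 69.4 and 66.8 RPM in that order. The neutrophil markers S100a9, Ly6g, Retnlg and Elane were at 0 in every PMAC library, and B and T cell lists summed to under 1 RPM in each. The part of the macrophage marker differences in the results for the 10 genes was not tested.

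In PMAC labelled SRBI knockdown, 7 of the 10 genes were higher than in control, 1 was lower and 2 did not pass. In this contrast 14.7% of the genes tested passed in the higher direction and 15.5% in the lower. Without regard to the test, 23.2% of genes lay above the controls without overlap and 24.3% below. The 7 higher genes were Nfkb1, Nfkb2, Rel, Nfkbia, Nfkbib, Nfkbiz and Tnfaip3, and the lower one was Nfkbie. Nfkbiz had 4873, 4938 and 4889 normalized counts in PMAC SRBI knockdown, above every control value given before, with a log2 fold change of 0.94 (adjusted p = 1.51e-09). Rel had 3395, 3398 and 3133 normalized counts in PMAC SRBI knockdown, also above every control, with a log2 fold change of 0.76 (95% interval 0.62 to 0.89, adjusted p = 5.22e-08). Nfkbie had 3984, 4067 and 4262 normalized counts in PMAC SRBI knockdown, below every control library, with a log2 fold change of -0.32 (95% interval -0.44 to -0.21, adjusted p = 1.16e-04).

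The other 5 genes that rose had smaller log2 fold changes of 0.44 for Nfkb1 (adjusted p = 3.44e-07), 0.43 for Tnfaip3 (2.31e-06), 0.37 for Nfkb2 (2.76e-05), 0.35 for Nfkbia (8.39e-06) and 0.28 for Nfkbib (0.00146). None of these 5 overlapped between the groups. Rela (log2 fold change -0.06, 95% interval -0.18 to 0.05, adjusted p = 0.447) and Relb (-0.13, 95% interval -0.27 to 0.01, adjusted p = 0.165) overlapped between the groups and did not pass. With columns rescaled to equal totals, both passed as lower, Rela at -0.14 (adjusted p = 0.0405) and Relb at -0.21 (adjusted p = 0.0182), which makes 3 lower genes with Nfkbie. Under that rescaling 3024 of all 13634 genes tested were lower.

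**Figure D2:**
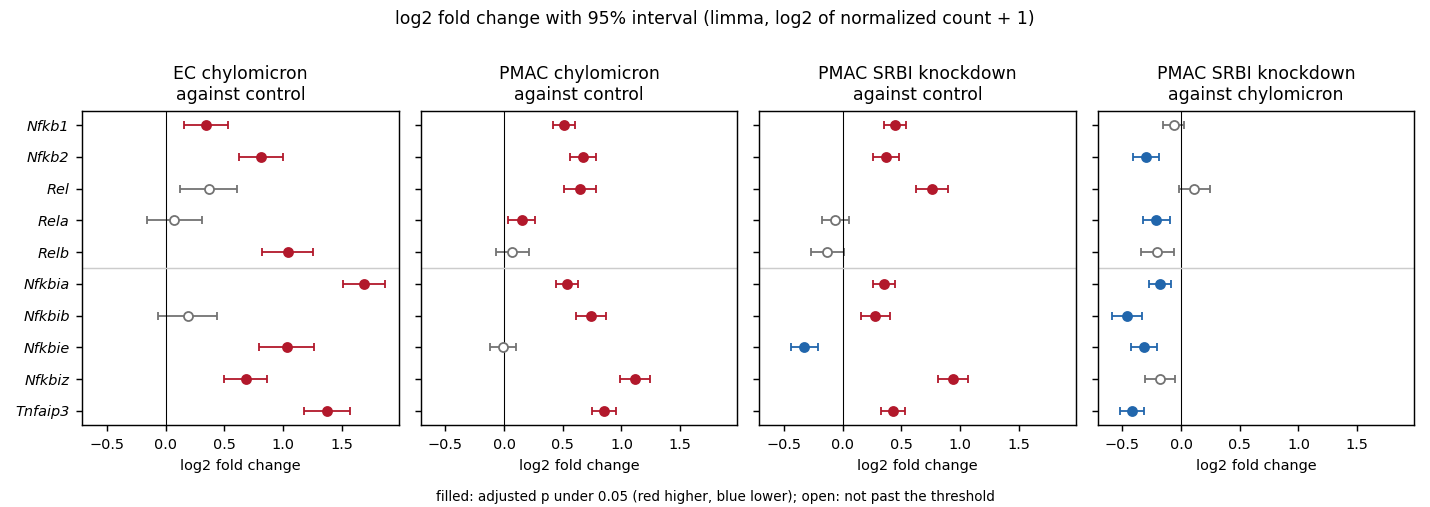
Log2 fold change of each of the 10 genes (points) with its 95% interval (bars) in 4 contrasts, subunits above the grey line and inhibitors below it; filled points passed an adjusted p under 0.05, red for higher and blue for lower. Nfkbia is farthest right in EC at 1.69 and Nfkbiz in PMAC chylomicron at 1.12, and no gene is filled red in SRBI knockdown against chylomicron.

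Set directly against PMAC chylomicron, PMAC SRBI knockdown had lower levels of 6 of the 10 genes, Nfkb2, Rela, Nfkbia, Nfkbib, Nfkbie and Tnfaip3. In this contrast 5.59% of the genes tested passed in the lower direction and 5.6% in the higher, and the higher direction held 0 of the 10 genes with limma, edgeR and DESeq2 and 0 at an unadjusted p under 0.05. The knockdown libraries lay below the chylomicron libraries without overlap for 7 of the 10 genes and 13.6% of all genes, and above them for 13.7% of all genes. The median log2 fold change was -0.21 for the 10 genes and 0.01 for all genes. Nfkbib had 2400.0, 2429 and 2540.1 normalized counts in PMAC SRBI knockdown, against 3414, 3340.3 and 3392 in PMAC chylomicron. The groups were far apart relative to their spread, and the log2 fold change was -0.46 (95% interval -0.59 to -0.34, adjusted p = 6.53e-05). Tnfaip3 had 9249, 10293 and 9937 normalized counts in PMAC SRBI knockdown, against 13538, 13016 and 12859 in PMAC chylomicron. The groups did not overlap, with a log2 fold change of -0.42 (95% interval -0.52 to -0.32, adjusted p = 2.39e-05), and the knockdown values still exceeded those of control.

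Nfkbie, the gene that differed from control under the SRBI knockdown label but did not pass under the chylomicron label, had a log2 fold change of -0.31 between the labels (adjusted p = 8.23e-04). Nfkb2 had 11678, 11209 and 11020.3 normalized counts in PMAC SRBI knockdown, against 13375, 14629 and 13619.7 in PMAC chylomicron. The knockdown libraries lay between those of chylomicron and control, with a log2 fold change of -0.30 (adjusted p = 0.00129, and 0.0501 without the mean-variance trend). Nfkbia had 18683, 19337 and 19779 normalized counts in PMAC SRBI knockdown, likewise between both other groups, with a log2 fold change of -0.18 (adjusted p = 0.0138). This call was lost without PMAC chylomicron replicate 2 (adjusted p = 0.0513), without PMAC SRBI knockdown replicate 1 (0.0848) and without the trend (0.0949), in a range of 7.44e-04 to 0.309. Rela had 3530.5, 3244 and 3471 normalized counts in PMAC SRBI knockdown, below every chylomicron library, with a log2 fold change of -0.21 (adjusted p = 0.0192). Its call was lost without PMAC chylomicron replicate 2 (adjusted p = 0.0613), without PMAC SRBI knockdown replicate 2 (0.104) and without the trend (0.0983), in a range of 0.00414 to 0.311.

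The remaining 4 genes did not pass between the labels. Nfkb1 (log2 fold change -0.06, 95% interval -0.15 to 0.03, adjusted p = 0.399) and Rel (0.11, 95% interval -0.02 to 0.25, adjusted p = 0.291) overlapped. Nfkb1 had 13154, 13129.6 and 13539 normalized counts in PMAC SRBI knockdown, of which the highest reached above the lowest chylomicron library. Nfkbiz did not overlap, at -0.18 (95% interval -0.31 to -0.05, adjusted p = 0.0696), and it passed with DESeq2 (adjusted p = 0.0330). Relb had 3404, 3017 and 3053 normalized counts in PMAC SRBI knockdown, which overlapped the chylomicron libraries, with a log2 fold change of -0.20 (adjusted p = 0.0667). It passed with DESeq2 (adjusted p = 0.0352) and without PMAC chylomicron replicate 3 (adjusted p = 0.0285).

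Markers also differed between these 2 PMAC groups. Of 12 macrophage markers, 1 was higher and 4 were lower in PMAC SRBI knockdown than in PMAC chylomicron. Of 5 mast cell and eosinophil markers tested, 3 were lower, Cma1, Cpa3 and Tpsb2, and the list summed to 5.37 to 11.3 RPM in PMAC SRBI knockdown, against 18.4 to 20.3 RPM in PMAC chylomicron, with Epx and Prg2 at 0 in both. Mmp8 was higher (log2 fold change 1.39, adjusted p = 9.37e-09). Their part in the results for the 10 genes was not tested.

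The balance of all PMAC calls changed when columns were rescaled to equal totals. As deposited, 2178 genes were higher and 2372 lower in PMAC chylomicron than in control, and with columns rescaled to equal totals 1307 were higher and 3768 lower. On recovered reads scaled by each tool, edgeR gave 2173 higher and 2316 lower and DESeq2 2280 and 2418, near the deposited balance. The counts for PMAC SRBI knockdown against control were 1998 higher and 2111 lower as deposited, and 1372 and 3024 rescaled. For PMAC SRBI knockdown against chylomicron they were 763 higher and 762 lower as deposited, and 1028 and 581 rescaled. For the knockdown libraries, edgeR gave 2013 higher and 2225 lower against control, and 745 and 816 against chylomicron. Rescaling put the median of all genes at -0.13 in PMAC chylomicron against control and at -0.07 in PMAC SRBI knockdown against control, and apart from the shifts named for Rela and Relb no gene of the 10 changed its call.

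The EC SRBI knockdown libraries were deposited separately from any control library, so they were set beside the other groups as RPM and not tested. Beside EC control, 5 of the 10 genes lay above every control library, where 37.5% of all genes with a mean of at least 1 RPM did, and 1 gene, Rela, lay below, where 29.3% did. The share of genes that do not overlap is thus high throughout, and the count of 5 stands little above it. Nfkbia reached 68.5, 73.5 and 77.2 RPM in EC SRBI knockdown, beside 151 ± 10.3 RPM in EC chylomicron and 46.2 ± 3.40 RPM in EC control (SD, n = 3 each). Its 3 knockdown libraries lay between the other EC groups with no overlap. Nfkbiz reached 147, 160.2 and 146 RPM in EC SRBI knockdown, beside 147 ± 6.21 RPM in EC chylomicron and 90.4 ± 5.17 RPM in EC control. These knockdown libraries overlapped EC chylomicron and lay above all EC controls.

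Tnfaip3 (36.6, 33.3 and 34.4 RPM in EC SRBI knockdown, beside 58.9 ± 3.24 in EC chylomicron and 22.4 ± 1.91 in EC control) and Nfkb2 (84.2, 82.1 and 78.6 RPM, beside 125 ± 11.2 and 69.7 ± 1.76) also lay between those groups. Rel reached 17.4 ± 1.31 RPM in EC SRBI knockdown, which overlapped the 15.3 ± 1.15 RPM of EC chylomicron and lay above the 11.7 ± 1.26 RPM of EC control. Relb (26.7 ± 0.983 RPM), Nfkbie (10.5 ± 1.51 RPM), Nfkb1 (139.8 ± 7.82 RPM) and Nfkbib (11.7 ± 1.12 RPM) overlapped EC control, whose means were 23.8, 9.09, 137 and 10.2 RPM in that order of genes. Rela was 62.7 ± 3.72 RPM in EC SRBI knockdown and 75.0 ± 1.13 RPM in EC control. Beside EC chylomicron, 7 genes lay below in EC SRBI knockdown, where 26.6% of genes did, and 0 lay above, where 30.5% did. The 7 were Nfkb1, Nfkb2, Rela, Relb, Nfkbia, Nfkbie and Tnfaip3.

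The EC SRBI knockdown libraries also differed in marker lists. Mesothelial markers summed to 408 to 448 RPM in EC SRBI knockdown beside 24.1 to 26.6 RPM in EC control. Fibroblast and mural markers summed to 4237 to 4637 RPM beside 2733 to 3231 RPM. The mast cell and eosinophil list summed to 564 to 637 RPM beside 76.2 to 85.4 RPM, with Cpa3, Tpsb2 and Epx at 0 in the knockdown libraries. The knockdown label, these differences and the separate table cannot be told apart as sources of the values above.

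**Figure D3:**
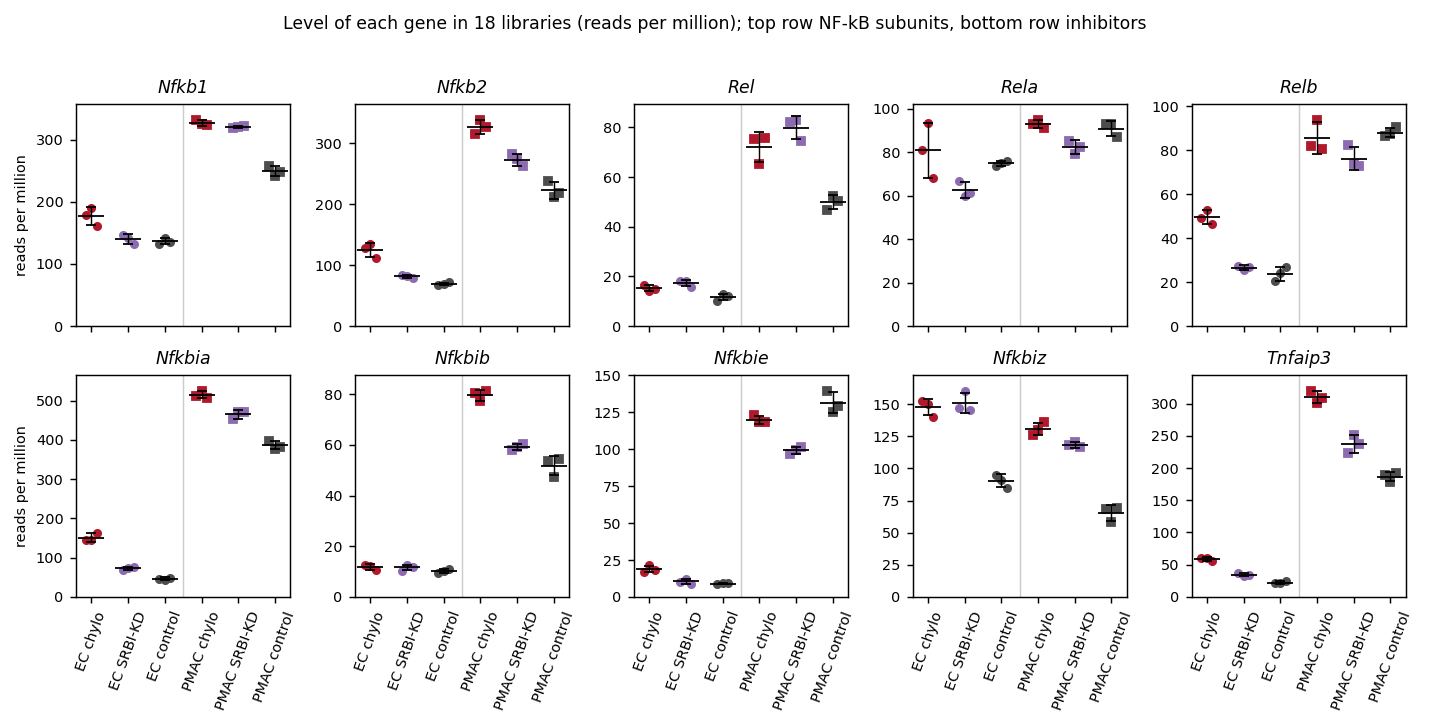
Level of each gene in RPM in all 18 libraries, with 1 point per library (circles EC, squares PMAC; red chylomicron, purple SRBI knockdown, dark grey control) and bars for the mean and SD of 3. For 9 genes every PMAC control point lies above every EC control point, and for Nfkbiz the order is the other way round.

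Set beside each other as RPM without a test, PMAC control exceeded EC control for 9 of the 10 genes with no overlap, where 30.7% of genes did, and fell below it for 1, where 58.8% did. The ratio of mean RPM, PMAC control over EC control, was 14.4 for Nfkbie (131 ± 7.15 and 9.09 ± 0.249 RPM), 8.35 for Nfkbia (386 ± 10.1 and 46.2 ± 3.40 RPM) and 8.33 for Tnfaip3 (186 ± 6.84 and 22.4 ± 1.91 RPM). It was 5.08 for Nfkbib, 4.28 for Rel, 3.70 for Relb, 3.20 for Nfkb2 and 1.82 for Nfkb1. The inhibitors other than Nfkbiz thus had higher ratios than any subunit. Rela had a ratio of 1.21 (91.0 ± 3.52 RPM in PMAC control and 75.0 ± 1.13 RPM in EC control), and Nfkbiz had 0.725 (65.5 ± 6.24 and 90.4 ± 5.17 RPM). The median ratio over the 12972 genes compared was 0.708, so Nfkbiz lay near the median gene and the other 9 genes lay above it.

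Across all 6 groups the order of mean RPM was PMAC chylomicron, PMAC SRBI knockdown, PMAC control, EC chylomicron, EC SRBI knockdown, EC control for Nfkb1, Nfkb2, Nfkbia, Nfkbib and Tnfaip3. No neighbours in that order overlapped for Nfkb2, Nfkbia and Tnfaip3. For Nfkb1 the EC SRBI knockdown and EC control libraries overlapped, and for Nfkbib each EC group overlapped the next. The PMAC chylomicron and PMAC SRBI knockdown libraries of Nfkb1 did not overlap in RPM but did in normalized counts. Rel had PMAC SRBI knockdown first (79.9 ± 4.61 RPM), overlapping PMAC chylomicron (72.1 ± 5.98 RPM). Nfkbie and Relb had PMAC control first, at 131 ± 7.15 and 88.1 ± 2.16 RPM, and the PMAC control libraries of Relb overlapped those of PMAC chylomicron (85.6 ± 7.13 RPM). For Nfkbie these groups did not overlap in RPM but overlapped in normalized counts (log2 fold change -0.01, limma adjusted p = 0.880), so that order depends on the scaling. The order for Rela was PMAC chylomicron, PMAC control, PMAC SRBI knockdown, EC chylomicron, EC control, EC SRBI knockdown, with several neighbours overlapping. Nfkbiz was the gene with EC groups at the top of its order, EC SRBI knockdown and EC chylomicron, which overlapped each other.

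The rest of the pathway was read through 5 gene lists ordered by role. These lists were chosen with earlier results of these data known, so their counts and medians describe the lists and are not independent support. In EC, 19 of 24 measured transcriptional targets of NF-kB rose with chylomicrons, with a median log2 fold change of 1.21 beside -0.02 for all genes. The counts of every list stand beside the 5.16% of all genes tested that rose and the 3.28% that fell in this contrast. Of 33 adaptors and kinases 7 rose, led by Ripk2 (1.59, adjusted p = 8.95e-07), a kinase downstream of NOD receptors, and Birc3 (1.16, adjusted p = 2.87e-06), a ubiquitin ligase of the TNF receptor complex. Of 17 other IkB-like and negative regulators 6 rose, among them Zc3h12a (1.71, adjusted p = 1.16e-07), an RNase that degrades inflammatory transcripts, Tnip1 (1.18, adjusted p = 3.92e-06), a partner of A20, and Bcl3 (1.40, adjusted p = 7.16e-05), a nuclear IkB protein. Of 13 receptors 4 rose, led by Tlr2 (2.43, adjusted p = 1.77e-09) and including the interleukin 1 receptor gene Il1r1 (0.34, adjusted p = 0.0156). In these 4 lists 0 genes fell with limma, edgeR or DESeq2, and 0 at an unadjusted p under 0.05. Of 5 ligands 2 fell, Il33 (-0.65, adjusted p = 0.0106) and Il1a (-1.56, adjusted p = 0.0128), and 0 rose with the same 3 tools or at an unadjusted p under 0.05. The IkB kinase genes Ikbkb (0.02, adjusted p = 0.915), Ikbkg (-0.08, adjusted p = 0.641) and Chuk (0.11, adjusted p = 0.598), singled out after their values were seen, did not pass in EC.

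In PMAC chylomicron against control, where 16% of all genes tested rose and 17.4% fell, 21 of 26 targets rose and 3 fell (median 1.30), the 3 being Plau (-0.99, adjusted p = 9.56e-09), Bcl2l1 (-0.60, adjusted p = 1.93e-06) and Icam1 (-0.37, adjusted p = 8.35e-06). Of 9 ligands 4 rose and 1 fell. Those that rose were Il1b at 5.06 and Il1a at 3.47 (adjusted p = 2.71e-16 each), Tnfsf14 at 2.63 (adjusted p = 8.12e-11) and Tnf at 0.54 (adjusted p = 6.11e-05). Of 16 receptors 6 rose and 5 fell, the TNF receptor gene Tnfrsf1b at 1.01 (adjusted p = 9.99e-11) and Tlr4 at 0.89 (adjusted p = 2.53e-10) being among the higher and Tnfrsf11a, the receptor of RANK ligand, at -0.84 (adjusted p = 6.61e-05) among the lower. Of 34 adaptors and kinases 15 rose and 5 fell, led by Traf1 (2.34, adjusted p = 9.62e-13) and Malt1 (1.15, adjusted p = 9.07e-10) among the higher and Ticam2, a Toll-like receptor adaptor, at -1.01 (adjusted p = 4.27e-07) among the lower. Ikbkg, the regulatory subunit of the IkB kinase complex, rose by 0.60 (adjusted p = 1.13e-07). Of 18 other negative regulators 5 rose and 3 fell, Zc3h12a at 1.06 (adjusted p = 6.03e-12) and Tnip1 at 0.73 (adjusted p = 8.66e-09) rising and Tnip3 at -0.31 (adjusted p = 6.12e-04) falling. The lower counts of the targets, the adaptors and the negative regulators were near or below the share of all genes.

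In PMAC SRBI knockdown against control, where 14.7% of all genes tested rose and 15.5% fell, 17 of 26 targets rose and 4 fell (median 0.95), Icam1 at -0.64 (adjusted p = 1.03e-08) being among the lower. Of 9 ligands 3 rose and 2 fell, of 16 receptors 6 and 3, of 34 adaptors and kinases 12 and 6, and of 18 other negative regulators 7 and 2. The lower counts of targets, receptors, adaptors and negative regulators were close to the share of all genes or below it. Cd40, a receptor of the TNF receptor family, fell by 0.81 (adjusted p = 1.50e-06), and Traf1 rose by 1.97 (adjusted p = 1.01e-11). Tnf, which rose in the chylomicron contrast, had a log2 fold change of -0.02 here (adjusted p = 0.870). Il1b (4.69, adjusted p = 8.19e-16) and Il1a (3.34, adjusted p = 4.58e-16) were higher here as well. Against PMAC chylomicron, where 5.59% of all genes tested were lower and 5.6% higher, 14 of 26 targets were lower in PMAC SRBI knockdown and 4 were higher (median -0.28), with Ccl5 at -1.07 (adjusted p = 5.08e-07) and Il12b at -1.37 (adjusted p = 1.12e-05) among the lower and Ccl2 at 1.17 (adjusted p = 4.45e-07) among the higher. Of 9 ligands 2 were lower, Tnf at -0.56 (adjusted p = 2.47e-04) and Il1b at -0.37 (adjusted p = 0.0260). The ligands held 0 genes that were higher with limma or edgeR, beside 1 with DESeq2 and 1 at an unadjusted p under 0.05. Of 18 other negative regulators 3 were higher and 1 was lower, Nfkbid, which encodes the nuclear IkB protein IkBNS, being higher at 0.28 (adjusted p = 0.0127). Of 34 adaptors and kinases 1 was higher and 3 were lower, and of 16 receptors 3 were higher and 3 were lower. For the adaptors and kinases these counts were near or below the share of all genes.

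**Figure D4:**
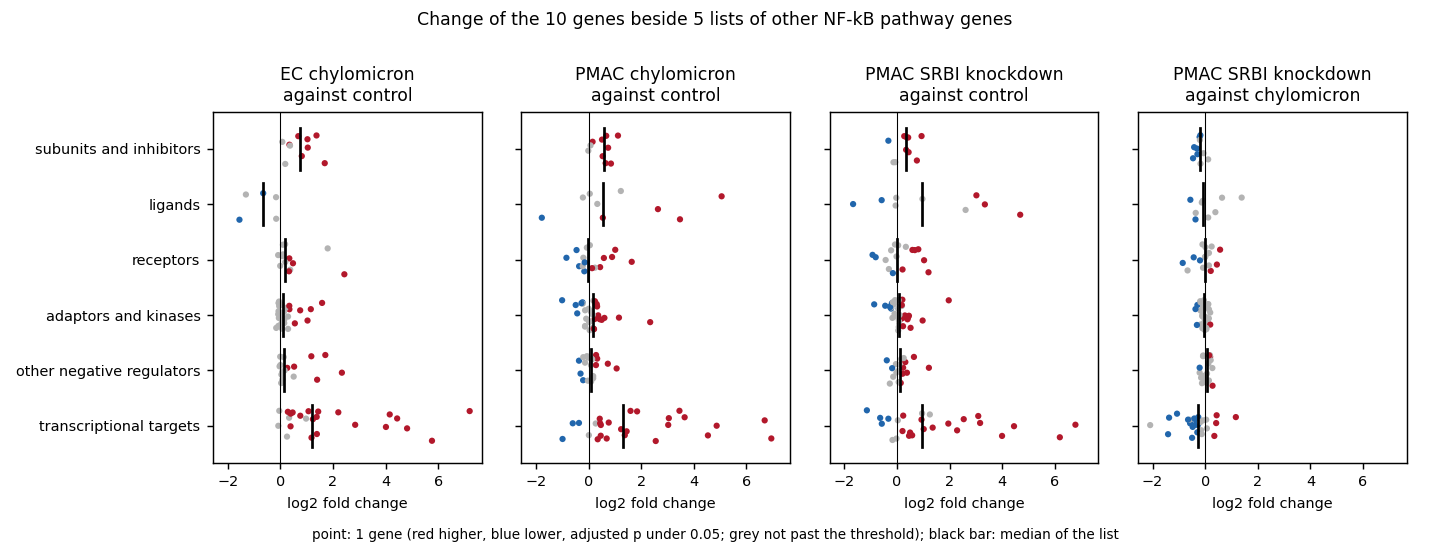
Log2 fold change of every tested gene of 5 pathway lists and of the 10 subunits and inhibitors (points; red higher and blue lower at an adjusted p under 0.05, grey not past it), with a black bar for each list's median, in 4 contrasts. The target list spreads farthest, with medians of 1.21 in EC and 1.30 in PMAC chylomicron against control, and lies at -0.28 in PMAC SRBI knockdown against chylomicron. The lists were chosen with earlier results of these data known.

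Genes that followed each member most closely were ranked by Pearson correlation over the 15 libraries of the EC and PMAC tables that hold controls, after centring log2 values within each table. These libraries share groups and scaling, so the values describe likeness only. Nfkb2 and Tnfaip3 were each other's near neighbours (r = 0.972), and Nfkb2 was next closest to Tnip1 (0.967) and Tnfaip3 closest to Sod2 (0.979), a mitochondrial superoxide dismutase. Nfkb1 was closest to Nfkbiz (0.969) and to the interleukin 4 receptor gene Il4ra (0.969). Nfkbiz in turn was closest to the kinase gene Jak2 (0.977) and the chemokine gene Cxcl1 (0.975), and Nfkbia to the chemokine gene Cxcl16 (0.988) and the transcription factor gene Runx1 (0.979).

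Nfkbie was closest to the adhesion molecule gene Icam1 (0.954) and to Rbbp8 (0.942), and Relb to the tubulin gene Tuba1b (0.955) and the metal transporter gene Slc11a2 (0.953). For Relb the nearest of the other 9 genes was Nfkbie (0.938), at rank 8 of all genes compared. Nfkbib was closest to Creld2 (0.960) and Dnajc1 (0.943). Rel was closest to Ahctf1 (0.962) and Fndc3a (0.961), and the nearest of the other 9 genes, Nfkbiz (0.896), stood at rank 68. Rela was closest to Usp4 (0.954) and Arhgdia (0.938), and the nearest of the other 9, Nfkbib (0.583), stood at rank 447, the lowest such value of the 10 genes.

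All 10 genes are placed on GRCm38.p6 by the RefSeq annotation. The subunit genes lie at chr3:135584655-135691969 (Nfkb1), chr19:46300994-46312400 (Nfkb2), chr11:23736847-23770969 (Rel), chr19:5637442-5648134 (Rela) and chr7:19606217-19629438 (Relb). The inhibitor genes lie at chr12:55489409-55492647 (Nfkbia), chr7:28758251-28766644 (Nfkbib), chr17:45555700-45563169 (Nfkbie), chr16:55811375-55838954 (Nfkbiz) and chr10:19000910-19015410 (Tnfaip3). Nfkb1, Nfkb2 and Nfkbib overlap other annotated genes, and since the counting is not stated to use strand, reads of overlapping genes cannot be told apart. The overlapping genes found in the tables were low, with 4.12 to 10.0 RPM for 4833438C02Rik and at most 2.99 RPM for Psd at Nfkb2, and at most 0.0587 RPM for Ccer2 at Nfkbib, over all 18 libraries.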

How the data were processed

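Per the labels' protocols, polyadenylated RNA of EC and PMAC was made into libraries with a stranded mRNA kit. The submitters' processing notes name bcl2fastq, STAR 2.7.3a, featureCounts, Subread 1.6.3, mm10 and GRCm38, with no role for each. The authors deposited a signal in 3 tables, normalized counts per gene. Each library had 1 step of which its nonzero values were whole multiples (tolerance 0.01 reads), which gave back the reads. The small RNA libraries were not used here.

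Tests used limma 3.58.1 under R 4.3.3 on log2 values with a pseudocount of 1 (empirical Bayes with a trend, two-sided, Benjamini-Hochberg over all genes, threshold 0.05), and genes whose mean normalized count fell below 10 were left out. The 6 EC libraries and the 9 PMAC libraries each had 1 fit. A fold change on this scale understates that of low genes. The EC SRBI knockdown table was scaled separately, so it was set beside the others in RPM (reads scaled to a total of 1000000) and not tested. EdgeR 4.0.16 and DESeq2 1.42.0 on recovered reads, other pseudocounts, filters and scalings, a replicate block and leaving libraries out were alternatives. The script was tested on simulated data.

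The 10 genes and the lists of pathway genes and markers were chosen with earlier results of these data known. All 10 genes are named, with up to 4 genes by smallest p in each direction from each pathway list, of which a share is printed, and the 2 genes most like each of the 10 where the mean reached 100 in both tables, predicted gene models left out. Levels were not compared between genes, since no transcript lengths were used. Reads carry no molecular identifiers and cannot be taken as separate molecules, so the spread between 3 libraries is the precision given. No pair of replicates held identical values. The main fits treated libraries as unpaired, and whether equal replicate numbers mark pairs could not be settled from 3 libraries per group.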

Additional observations from a re-analysis of the deposited data

How the results depend on the processing

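Over 660 refits of the 10 genes in 4 contrasts, 619 kept their direction and their side of the threshold, 27 lost the call, 7 gained it and 7 turned direction. Those that turned had not passed the test. Rela in EC was -0.041 without EC chylomicron replicate 2 (-0.041 to 0.21 over single libraries left out) and -0.036 without it and EC control replicate 1. Relb in PMAC chylomicron against control was -0.045 with columns rescaled to equal totals, -0.010 without PMAC chylomicron replicate 2 (-0.010 to 0.12 over single libraries) and -0.033 without PMAC chylomicron replicates 1 and 2. Nfkbie there was 0.0092 when PMAC chylomicron replicate 3 was left out and 0.033 when PMAC control replicate 1 was (-0.042 to 0.033 over single libraries). Without the mean-variance trend, 587 genes were called in EC (1317 with it) and 602 in PMAC SRBI knockdown against chylomicron (1525 with it), where 3 of the 10 genes were then lower instead of 6. Leaving out PMAC chylomicron replicates 1 and 2 together gave 618. Rescaled columns made 3 of the 10 genes lower in PMAC SRBI knockdown against control, instead of 1, where 3024 of all 13634 genes tested were lower. Leaving out 1 library at a time gave 744 to 1549 calls in EC, 3663 to 4437 in PMAC chylomicron against control (4550 with all libraries), 3262 to 3618 in PMAC SRBI knockdown against control (4109) and 822 to 1798 in PMAC SRBI knockdown against chylomicron. The EC count was 744 without EC control replicate 1 and 803 without replicate 2, and the last contrast's was 822 without PMAC SRBI knockdown replicate 1 and 937 without replicate 2. Of the 10 genes, 6 to 7 were then higher in EC, 7 to 8 higher in PMAC chylomicron, and 4 to 7 lower in PMAC SRBI knockdown against chylomicron. The causes were not tested. Deviations of same-numbered libraries correlated at -0.161 to 0.175 in EC and -0.104 to 0.0746 in PMAC. Those of differently numbered libraries correlated at -0.404 to 0.319 in EC and -0.0422 to 0.105 in PMAC. With 3 libraries per group these values cannot exclude that replicate numbers mark pairs. A replicate block gave 1581, 4270, 3844 and 1251 calls in the 4 contrasts in the order above, with no call of the 10 genes changed other than Rela in PMAC chylomicron. Each gene had 154 reads or more in every library, and the part of counting in the spread between 3 libraries was not tested.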
